A study of Mus musculus with 8 samples.

Results

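Short interspersed elements (SINEs) are short repeats, copied through RNA, that fill mouse introns and intergenic DNA. Every entry that the deposited transposon tables name as a SINE was taken, in the table of uniquely mapped reads and in the table of multiply mapped reads. These are 82 of 1268 entries in each table, namely 41 families with 1 sense and 1 antisense entry each. By the group name in the tables, 40 entries are Alu, which in the mouse means the B1 families and their fossil relatives, 10 are B2, 8 are B4, 8 are ID, 10 are MIR, 4 are a small group named SINE and 2 are tRNA (MamSINE1). Of the 82 entries, 81 had at least 1 uniquely mapped read in some library and 78 had at least 1 multiply mapped read.

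The libraries are RNA sequencing of C57BL/6 mouse testis at 6 weeks of age, made with primers that avoid ribosomal RNA. There are 4 groups of 2 libraries: testis heterozygous for RNF17, testis homozygous for RNF17, and the RNA recovered from testis lysates of each genotype by immunoprecipitation (IP) with an antibody against RNF17. RNF17, a Tudor domain protein of germ cells, was studied here for its place in the piRNA pathway. The labels give the genotypes as heterozygous and homozygous RNF17 without naming the allele, no wild type group was analysed here, and whether both libraries of a group stem from different animals is not stated. Each p-value thus reflects library-to-library spread alone, possibly of technical origin. Testis is a mix of germ cells and somatic cells, in which fewer cells of a type and less RNA per cell cannot be told apart.

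SINEs do not encode a protein and are copied by the machinery of LINE-1 elements. B2, ID and MIR descend from transfer RNAs or tRNA-like RNAs, and B4 joins an ID-like and a B1-like part. RNA polymerase III can transcribe them from an internal promoter made of an A box and a B box, but most SINE sequence in RNA is carried inside longer transcripts of RNA polymerase II, and read counts per family do not separate these origins. A sense read here carries the family's own strand and an antisense read the opposite one, as the entry names state it; the rule behind it is not given in the sources used here.

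Bc1, the parent RNA of the ID family, is shown as an example of an RNA from which a SINE family arose. It is a GENCODE M21 transcript on GRCm38, the tables use mm9, and no count was joined to its position. Its lincRNA gene lies on chromosome 7 (chr7:144914470-144914637, plus strand), and it is the neuronal RNA from which ID elements were copied. Capitals mark a match to an A box pattern (bases 14 to 24) and to the B box letters GTTCGNNNC (bases 58 to 66), searched on both strands.
Bc1: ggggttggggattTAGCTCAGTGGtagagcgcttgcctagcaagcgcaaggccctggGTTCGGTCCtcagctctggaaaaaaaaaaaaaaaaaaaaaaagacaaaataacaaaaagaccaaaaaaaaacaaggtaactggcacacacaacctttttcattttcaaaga
Of 32851 promoter windows from RefSeq trimmed to 168 bases, the length of Bc1, 6.52% held the A box pattern and 2.46% the B box pattern. A match describes the letters only.

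Between 5661754 and 50575649 reads fell on genes per library, and between 115468 and 1102331 uniquely mapped reads fell on SINEs, which was 20.5% to 29.6% of all uniquely mapped transposon reads. Levels below are CPM, counts per 1e+06 genic reads after scaling by TMM factors of the gene table (0.771 to 1.36). Rnf17, the targeted gene, matched the genotype labels, with 518 and 532 CPM in the heterozygous testis libraries and 50.1 and 105 CPM in the homozygous ones.

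Some libraries stood apart. Replicate 1 lay above replicate 2 in the testis of both genotypes for 68 of the 81 SINE entries with a uniquely mapped read, and 50 of those 81 were highest in replicate 1 of the heterozygous testis. Unscaled, uniquely mapped SINE reads came to 4.87 and 1.79 per 100 genic reads in replicates 1 and 2 of the heterozygous testis and to 5.43 and 2.18 in those of the homozygous testis, against 1.76 to 3.07 over the IP libraries. The testis libraries thus spread much more than the IP libraries did. Among multiply mapped reads, 69 of 78 entries were highest in replicate 1 of the heterozygous IP. The markers of elongating spermatids, the cells that condense the sperm head, also differed with genotype: their 20 measured genes summed to 9605 to 36677 CPM in heterozygous testis, 2291 to 3482 CPM in homozygous testis, 9671 to 10295 CPM in heterozygous IP and 1610 to 1813 CPM in homozygous IP. Their part in the SINE results was not tested.

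In whole testis, no SINE entry passed the test between genotypes. B1 sense reads stood at 7727 and 4753 CPM in heterozygous and at 7634 and 4854 CPM in homozygous testis. B4 sense reads stood at 6515 and 3774 CPM against 5883 and 3568 CPM. In both families replicate 1 was high and replicate 2 low, and the genotypes overlapped almost wholly. B2 antisense reads spread most, at 17980 and 3566 CPM in heterozygous and 11082 and 3055 CPM in homozygous testis. Heterozygous libraries averaged 37011 ± 19525 CPM over all SINE reads and homozygous ones 31027 ± 12557 CPM (SD, n = 2), a log2 ratio of -0.25. The exact two-sided permutation p was 0.667, where 2 against 2 libraries cannot go below 0.333.

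The testis entries with the smallest p-values were MIR3 antisense, AmnSINE1 antisense and FLAM_A sense. MIR3 antisense, from the mammalian-wide MIR repeats, stood at 226 and 152 CPM in heterozygous and 99.3 and 64.6 CPM in homozygous testis, a log2 fold change of -1.20 (SE 0.91). AmnSINE1 antisense, from a repeat shared by amniotes, stood at 11.7 and 18.4 CPM against 8.80 and 5.20 CPM. In both, the 2 homozygous libraries lay below the 2 heterozygous ones. FLAM_A sense, a fossil relative of B1, was above 2 CPM only in replicate 1 of the heterozygous testis, at 5.10 CPM, and its log2 fold change of -1.56 became 0.71 without that library. No SINE entry of 75 tested passed in edgeR's quasi-likelihood test at a Benjamini-Hochberg adjusted p under 0.05, none had an unadjusted p under 0.05, and DESeq2 called 0; over the whole table edgeR called 0% of 1074 entries. Counting entries whose genotypes did not overlap gave 12 of 82 lower and 2 of 82 higher in homozygous testis, beside 13.6% and 3.94% of all entries.

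**Figure D1:**
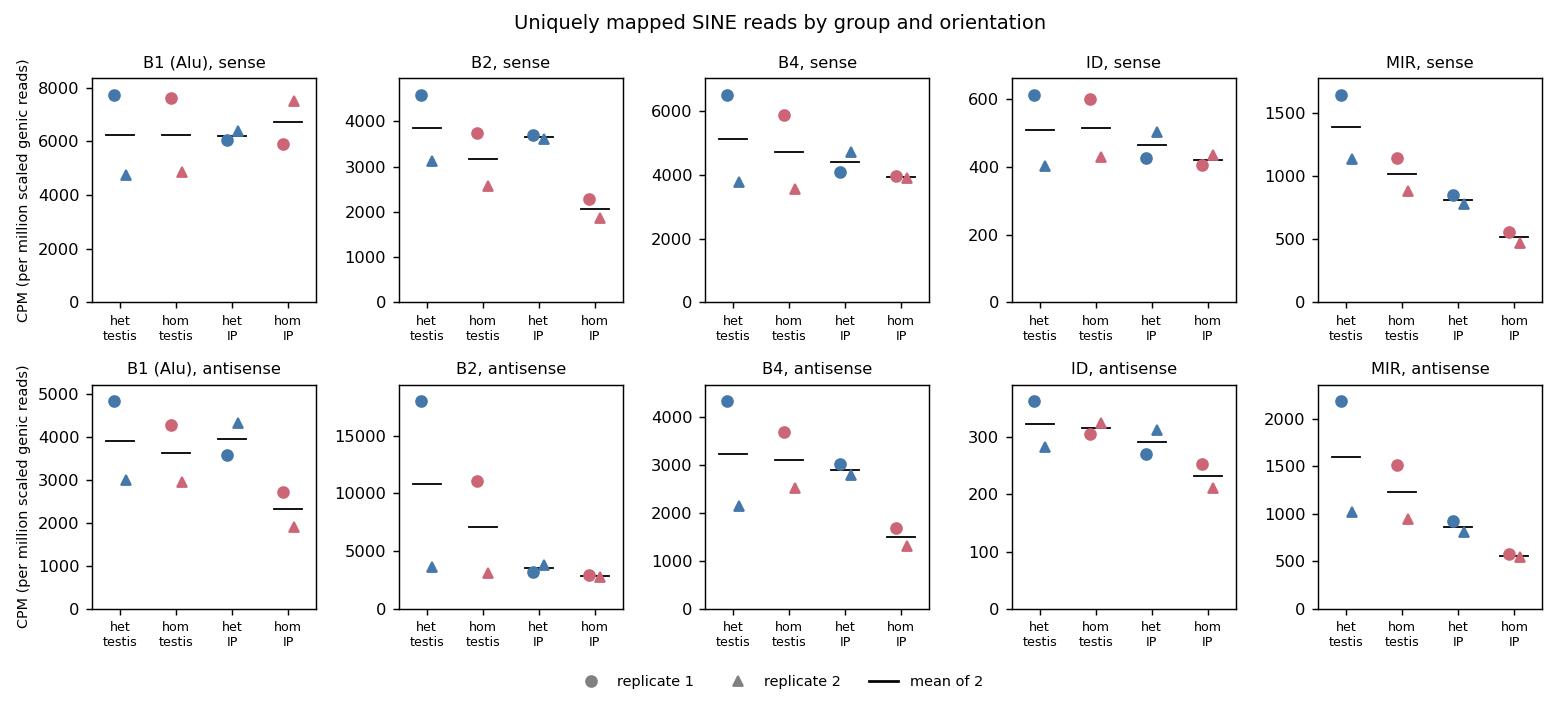
Summed uniquely mapped SINE reads in CPM (vertical axes, from 0) for the 5 main SINE groups, sense above and antisense below, in the 4 groups of libraries; each point is 1 library and each bar the mean of 2. Testis replicate 1 sits above replicate 2 in all 10 panels for heterozygotes and in 9 for homozygotes. Both homozygous IP libraries are the lowest in every panel except B1 sense, B4 sense and ID sense.

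In the RNF17 IP, 35 SINE entries passed between genotypes, and the calls fell unevenly on the strands. Nearly all antisense B1 and antisense B4 entries were higher in the heterozygous than in the homozygous IP, as were sense B2 entries and most MIR entries, while no sense B1 or sense B4 entry was. Of 71 SINE entries tested in edgeR, 34 were higher and 1 was lower in the heterozygous IP at an adjusted p under 0.05, with a median log2 fold change of 0.54. That is no more than the transposon table as a whole: 55.5% of its 974 tested entries were higher and 2.16% lower, with a median of 0.87. LINE entries were higher in 127 of 218 and LTR entries in 380 of 685. Entries whose libraries did not overlap between the IPs numbered 57 of 82 higher, beside 66.5% of all entries, and 4 lower, beside 5.13%.

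How many SINE entries passed, and in which direction, hung on the scaling. Genic reads without TMM gave 54 of 72 SINE entries higher and 0 lower, beside 714 of all 986 entries called. TMM factors taken within the transposon table gave 0 higher and 15 lower, beside 260 of all 966 entries called. That scaling moved the median of all entries from 0.87 to 0.08. With the spread estimated over all 8 libraries, 0 passed, and without homozygous IP replicate 2, 19 were higher and 1 lower (26.7%, beside 48.1% of all entries in that fit). In this and every other fit that leaves out a library, the lone library of its group is assumed to vary like the other groups. As a share of all uniquely mapped transposon reads, the log2 ratio between the IPs was 0.17 for antisense B1, 0.34 for antisense B4 and 0.21 for sense B2 reads. On that scale it was -0.70 for sense B1, -0.43 for sense B4 and -0.29 for antisense B2 reads, between 0.02 and 0.04 for MIR on both strands, and -0.44 and -0.27 for ID in sense and antisense. On that scale B2 antisense, B4 sense and both ID strands were thus below 0. The comparison of sense with antisense inside a family, which no library scaling touches, is also given for B1, B4, B2, MIR and ID.

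B1 showed the split in full. B1 antisense reads stood at 3589 and 4333 CPM in the heterozygous and at 2715 and 1907 CPM in the homozygous IP, which are means of 3961 ± 526 and 2311 ± 571 CPM (SD, n = 2) and a log2 ratio of 0.78. B1 sense reads stood at 6039 and 6398 CPM against 5919 and 7504 CPM, a log2 ratio of -0.11. The antisense libraries did not overlap between genotypes and the sense libraries did. The sense overlap rested on 1 entry, B1_Mus1 sense, described below. Of 14 antisense B1 entries tested, 12 were higher in the heterozygous IP and none lower. Of 17 sense entries, 0 were higher and 1 was lower, although 4 had an unadjusted p under 0.05. In each of the 14 B1 families measured on both strands, the log2 fold change of the antisense entry lay above that of the sense entry, by a median of 0.67.

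B1_Mur2 (0.35) and PB1D9 (0.30) were the antisense B1 entries tested that did not pass. B1_Mus1 antisense, from one of the younger mouse families, stood at 423 and 504 CPM in the heterozygous and at 267 and 164 CPM in the homozygous IP, a log2 fold change of 1.10 (SE 0.25). PB1 antisense, from the ancestral proto-B1 monomers, stood at 74.1 and 80.4 CPM against 42.9 and 26.8 CPM, a change of 1.15 (SE 0.24, edgeR adjusted p = 0.0032). PB1D10 antisense, the antisense B1 entry with most reads, stood at 494 and 542 CPM against 369 and 263 CPM, a change of 0.72 that became -0.07 with TMM factors of the transposon table. In all 3 the heterozygous libraries lay above both homozygous ones. The other 9 that passed, among them B1F, B1_Mm, B1_Mus2 and B1_Mur4, had changes between 0.70 and 1.14.

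B4 likewise had the wider gap on the antisense strand. B4 antisense reads stood at 3016 and 2784 CPM in the heterozygous and 1685 and 1305 CPM in the homozygous IP, a log2 ratio of 0.96. B4 sense reads stood at 4102 and 4720 CPM against 3961 and 3920 CPM, a ratio of 0.16. Neither strand overlapped between genotypes. All 4 antisense entries of the group were higher and 0 of the 4 sense entries passed. B4A antisense, at 736 and 611 CPM against 315 and 242 CPM, had a log2 fold change of 1.27 (SE 0.22, edgeR adjusted p = 0.0014). The entry named B4 antisense, at 381 and 338 CPM against 181 and 126 CPM, had one of 1.23 (SE 0.21, edgeR adjusted p = 0.0013). ID_B1 and RSINE1 antisense followed at 0.79 and 0.84. ID_B1 sense, the B4 sense entry with most reads, had a change of 0.02.

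The share of a group's reads that were antisense puts this on 1 scale. For B1 it was 38.5% and 38.6% in testis of heterozygotes, 35.9% and 37.9% in testis of homozygotes, 37.3% and 40.4% in the heterozygous IP, and 31.4% and 20.3% in the homozygous IP. For B4 it was 39.9%, 36.1%, 38.6%, 41.5%, 42.4% and 37.1% in the same order, and then 29.8% and 24.98% in the homozygous IP. Both libraries of the homozygous IP thus lay below the 6 other libraries in both families. The B1 share includes B1_Mus1 sense, which was 21.7% and 36.1% of B1 sense reads in the homozygous IP and 9.44% to 15.4% elsewhere. In reads, it held 6941 of 32036 and 16794 of 46512 B1 sense reads there, beside 14694 and 11821 B1 antisense reads. Part of the low B1 share in the homozygous IP thus rests on this entry, most of all in replicate 2. The B1 share without that entry was not calculated. The 95% Wilson intervals reach at most 0.421 points either way for B1 and 0.513 points for B4; they cover counting error only, and reads without molecular identifiers are not independent molecules. The means were 38.8% ± 2.19 and 25.9% ± 7.91 for B1 and 39.7% ± 3.73 and 27.4% ± 3.44 for B4 in the heterozygous and homozygous IP (SD, n = 2), each with an exact two-sided permutation p of 0.333, the smallest the design allows.

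**Figure D2:**
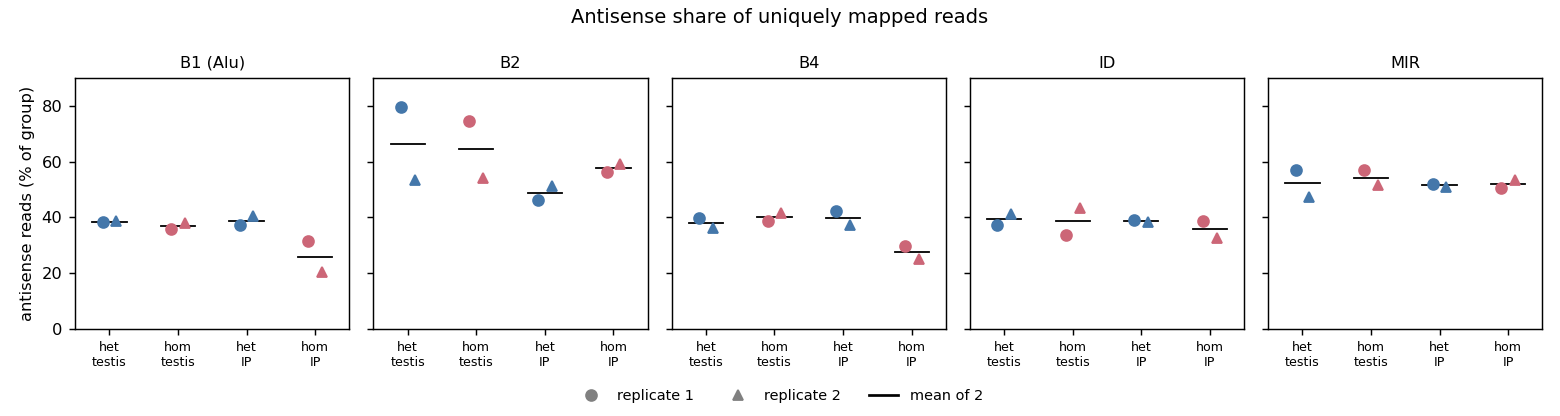
Antisense reads as a percentage of all uniquely mapped reads of a SINE group (vertical axis) in the 4 groups of libraries; each point is 1 library and each bar the mean of 2. For B1 and B4 the homozygous IP libraries, at 20.3% to 31.4%, lie below all others. For B2 they lie above the heterozygous IP and within the testis range, and the ID and MIR points overlap.

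Of the 6 sense B1 entries with a change below 0, B1_Mus1 alone passed. B1_Mus1 sense stood at 855 and 987 CPM in the heterozygous and at 1282 and 2710 CPM in the homozygous IP, and it was lower in heterozygotes by edgeR, with a log2 fold change of -1.12 (SE 0.36, adjusted p = 0.025). In testis it stood at 729 and 471 CPM in heterozygotes and 812 and 475 CPM in homozygotes. The homozygous IP libraries were thus the highest of all 8, replicate 2 by far. Against homozygous testis the same entry was higher in the homozygous IP by 1.63 (SE 0.58, edgeR adjusted p = 0.024), a comparison that shares the homozygous IP libraries with the first. Its share of all B1 sense reads was 9.44% to 10.6% in the 4 testis libraries, 14.2% and 15.4% in the heterozygous IP, and 21.7% and 36.1% in the homozygous IP (95% Wilson intervals 21.2% to 22.1% and 35.7% to 36.5%). Without homozygous IP replicate 2 its change was -0.48, with an edgeR adjusted p of 0.19, and with genic reads without TMM it was -0.77, with an edgeR adjusted p of 0.058. Taking this entry out left B1 sense reads at 5183 and 5411 CPM against 4636 and 4795 CPM, a log2 ratio of 0.17. Those libraries did not overlap between genotypes. The entry to take out was chosen after its values were seen.

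In B2 the calls fell mostly on the sense strand. B2 sense reads stood at 3706 and 3618 CPM in the heterozygous and at 2286 and 1861 CPM in the homozygous IP, a log2 ratio of 0.82. B2 antisense reads stood at 3186 and 3813 CPM against 2954 and 2721 CPM, a ratio of 0.30. Neither strand overlapped between genotypes, and the sense gap was the wider. All 5 sense entries were higher by edgeR, and of the 5 antisense entries only B2_Mm1a passed, at 0.92. B2_Mm1a sense, from one of the younger B2 subfamilies, stood at 236 and 186 CPM against 106 and 106 CPM, a log2 fold change of 0.99 (SE 0.18, edgeR adjusted p = 0.0018). B3 sense, an older B2 relative and the B2 sense entry with most reads, stood at 1722 and 1740 CPM against 1089 and 812 CPM, a change of 0.86, while B3 antisense had one of 0.21. In 0 of the 5 B2 families did the antisense change lie above the sense change, and the median difference was -0.40. The antisense share of B2 reads was 46.2% and 51.3% in the heterozygous IP and 56.4% and 59.4% in the homozygous IP. In testis it was 79.7% and 53.4% in heterozygotes and 74.7% and 54.3% in homozygotes. Here the heterozygous IP thus lay below all other libraries, and the homozygous IP lay within the testis range.

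MIR entries, remnants of long inactive elements, passed on both strands. MIR sense reads stood at 847 and 779 CPM in the heterozygous and at 561 and 473 CPM in the homozygous IP, and MIR antisense reads at 922 and 812 CPM against 573 and 546 CPM. The log2 ratios were 0.65 and 0.63, with no overlap on either strand. All 5 sense entries and 4 of the 5 antisense entries were higher. MIRc sense, at 198 and 173 CPM against 113 and 72.1 CPM, had a change of 1.01 (SE 0.22), and MIR3 antisense, at 93.8 and 74.4 CPM against 42.3 and 44.9 CPM, one of 0.95 (SE 0.19, edgeR adjusted p = 0.0030). The antisense share of MIR reads lay between 50.5% and 53.6% in all 4 IP libraries. In 3 of the 5 MIR families the antisense change lay above the sense change, with a median difference of 0.01.

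ID and the small groups gave less. ID sense reads stood at 425 and 502 CPM against 404 and 435 CPM, where the genotypes overlapped, and ID antisense reads at 272 and 313 CPM against 254 and 212 CPM, where they did not (log2 ratio 0.33). Of 4 entries on each strand, ID sense (0.66) and ID4_ antisense (1.01) were higher. ID4 sense, the ID sense entry with most reads, had a change of 0.01. In 1 of the 4 ID families the antisense change lay above the sense change, and the median difference was -0.15. The antisense share of ID reads was 39.0% and 38.4% in the heterozygous IP and 38.6% and 32.8% in the homozygous IP. AmnSINE1 antisense, at 4.91 and 6.72 CPM against 2.77 and 2.10 CPM, was higher by 1.24 (SE 0.42). It rests on few reads: all antisense reads of its group, the one named SINE, numbered 48 and 34 in the homozygous IP. MamSINE1, the tRNA group, had changes of 1.19 in sense and -0.81 in antisense, and neither passed.

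**Figure D3:**
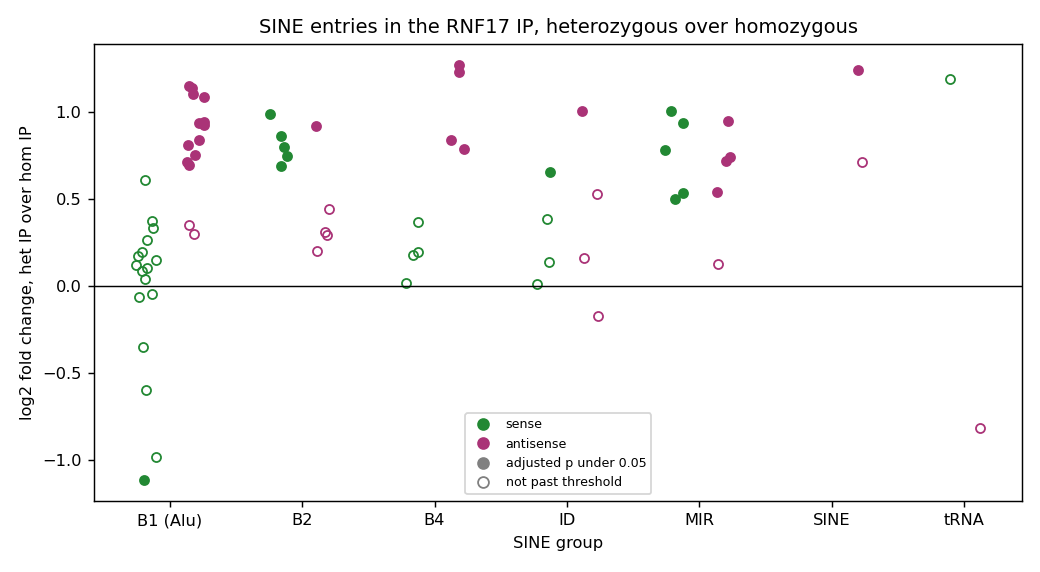
Log2 fold change of heterozygous over homozygous IP (vertical axis) for the 71 SINE entries tested by edgeR, by SINE group (horizontal axis) and strand; filled points have an adjusted p under 0.05, and points are spread sideways only for legibility. Most B1 and all B4 antisense points lie above the sense points of their group, and B2 sense points above most B2 antisense points. The filled B1 sense point at -1.12 is B1_Mus1. TMM factors of the transposon table put 0 SINE entries past the threshold as higher and 15 as lower, beside 260 of all 966 entries called.

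Outside the SINEs, 268 of 459 other antisense entries and 239 of 444 other sense entries were higher in the heterozygous IP, with medians of 0.97 and 0.82. Among SINEs 23 of 35 antisense and 11 of 36 sense entries were, with medians of 0.76 and 0.23. The difference between these splits was not tested.

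Set against the testis of the same genotype, the heterozygous IP showed no SINE entry past the threshold, and the homozygous IP showed 11. All SINE reads in the homozygous IP had a log2 ratio of -0.56 to testis, which was -0.07 without homozygous testis replicate 1 and -0.03 as a share of transposon reads. In the heterozygous IP, B1 antisense reads had a log2 ratio of 0.02 to testis and B4 antisense reads one of -0.16. In the homozygous IP the ratios were -0.65 and -1.06, and the sense ratios were 0.10 and -0.26. By edgeR 0 of 75 entries passed in heterozygotes (1 had an unadjusted p under 0.05, and DESeq2 called 1 lower), beside 0.194% of all entries. Entries whose heterozygous IP and testis libraries did not overlap numbered 15 lower and 3 higher of 82, beside 16.6% and 13.4%. The count rested on the unlike testis libraries: without heterozygous testis replicate 1, 11 entries were higher and 4 lower (20%, beside 34.1% of all entries in that fit), and without replicate 2, 0 were higher and 28 lower (36.8%, beside 56.1%).

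In homozygotes 10 of 73 SINE entries were lower and 1, B1_Mus1 sense, was higher in the IP than in testis by edgeR, beside 34.2% lower and 1.5% higher over all entries. The 10 were B2_Mm2, MIR, B4, MIRb, B4A, PB1 and AmnSINE1 in antisense and LFSINE_Vert, MIRc and MIR in sense. B4A antisense stood at 811 and 622 CPM in homozygous testis against 315 and 242 CPM in the IP, a log2 fold change of -1.36 (SE 0.47, adjusted p = 0.019). MIR antisense stood at 601 and 348 CPM against 196 and 179 CPM, a change of -1.34 (SE 0.45, adjusted p = 0.015). In both the IP libraries lay below the testis libraries. Non-overlapping entries numbered 44 lower and 2 higher of 82, beside 62.9% and 4.97%. Genic reads without TMM left 2 lower, beside 273 of all 997 entries called, and DESeq2 gave 5 lower and 1 higher, beside 268 of 1227. TMM within the transposon table gave 0 lower and 3 higher, beside 163 of 1022. Estimating the spread over all 8 libraries left 0, beside 0 of 1060. The calls also hung on each homozygous IP library. Without homozygous testis replicate 2, 45 were lower and 1 higher (63%, beside 58.7% of all entries in that fit).

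The genotype difference in the IP to testis ratio, fitted as an interaction over all 8 libraries, passed for 0 of 76 SINE entries by edgeR and 0 by DESeq2, with 0 at an unadjusted p under 0.05 and beside 0% of 1060 entries called. The smallest p-values belonged to B4A antisense, with an interaction of 1.32 (SE 0.81, adjusted p = 0.61), and to B4 antisense, with 1.25 (SE 0.79, adjusted p = 0.61). Of 37 antisense entries 32 had a value above 0, and of 39 sense entries 30 had. The median was 0.29 over the SINE entries and 0.61 over all 1060 entries. With TMM within the transposon table these medians were -0.43 and -0.02, so the signs hung on the scaling. Without heterozygous testis replicate 1, 8 of the SINE entries (10.4%) passed, all higher, beside 37.8% of all entries in that fit. The strand split of B1 and B4 is thus measured between the IPs, and a genotype effect on the ratio to testis was not detectable with these libraries.

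B2_Mm2 antisense made up 69.3% and 58.7% of B2 antisense reads in replicate 1 of the heterozygous and homozygous testis. In replicate 2 it made up 29.3% and 13.2%. It stood at 12453 and 1044 CPM in heterozygous testis, 6508 and 404 CPM in homozygous testis, 510 and 687 CPM in the heterozygous IP, and 519 and 447 CPM in the homozygous IP. Replicate 1 of both testis groups was thus high and the 6 other libraries were low. In those replicate 1 libraries the entry made up 24.5% and 16.3% of all uniquely mapped SINE reads, against 1.82% to 4.50% elsewhere. Its sense partner stood at 1120 and 501 CPM and at 747 and 415 CPM in the same testis libraries. The homozygous IP to testis change of -2.84 (SE 0.72, edgeR adjusted p = 0.0013) became 0.26 without homozygous testis replicate 1, and the heterozygous change of -3.49 (SE 1.01, edgeR adjusted p = 0.17) became -0.80 without heterozygous testis replicate 1. The entry was singled out by its p-value in these comparisons.

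**Figure D4:**
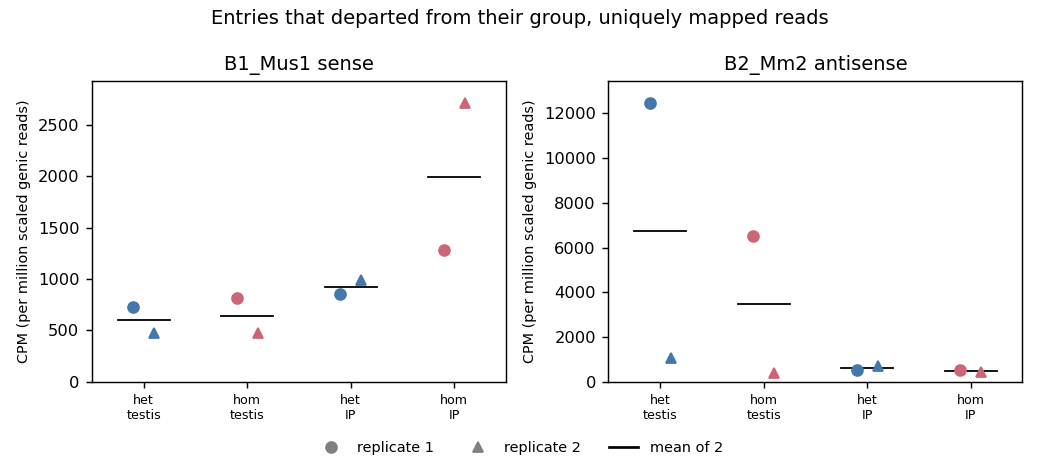
CPM of uniquely mapped reads (vertical axes, from 0) for B1_Mus1 sense and B2_Mm2 antisense in the 4 groups of libraries; each point is 1 library and each bar the mean of 2. B1_Mus1 sense is highest in the homozygous IP, at 1282 and 2710 CPM, and B2_Mm2 antisense is high only in replicate 1 of both testis groups.

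Multiply mapped reads come from copies too alike to place, which is commonest in young families. They were few: 2311 to 89808 SINE reads per library. Per 100 uniquely mapped SINE reads they numbered 10.9 and 15.5 in the heterozygous testis, 9.70 and 2.48 in the homozygous testis, 32.4 and 2.15 in the heterozygous IP, and 1.78 to 2.00 in the homozygous IP. Replicate 1 of the heterozygous IP was the highest library in B1 (21.8 per 100 against 1.52 in replicate 2), in B4 (35.5 against 1.55) and in MIR (32.8 against 0.914). In B2 it stood at 45.1, near the 37.8 of heterozygous testis replicate 2. Across 48 entries with at least 10 such reads in replicate 2, the median ratio of replicate 1 to replicate 2 was 17.3, and across 71 entries of uniquely mapped reads it was 0.922.

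All multiply mapped SINE reads together stood at 8478 and 603 CPM in the heterozygous and 427 and 373 CPM in the homozygous IP, a log2 ratio of 3.504 that was 0.59 without heterozygous IP replicate 1. By edgeR 0 of 50 SINE entries passed between the IPs (19 had an unadjusted p under 0.05, and DESeq2 called 15 higher), beside 0% of 404 entries, and non-overlapping entries numbered 46 higher and 0 lower of 82, beside 36.4% and 0.552%. Without heterozygous IP replicate 2, 64 entries passed (98.5%, beside 88.8% of all entries in that fit), and without replicate 1, only B4 antisense did, at 1.81 (2%, beside 18.1%). Replicate 2 by itself lay above both homozygous libraries for 46 of 78 entries.

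Between testes, multiply mapped SINE reads stood at 5542 and 3597 CPM in heterozygotes and at 3870 and 550 CPM in homozygotes, and 0 of 64 entries passed by edgeR (0 at an unadjusted p under 0.05, 0 by DESeq2), beside 0% of 757. Entries that did not overlap numbered 6 lower and 1 higher of 82, beside 11.9% and 1.42%. In the heterozygous IP against testis 0 of 62 passed (0 at an unadjusted p under 0.05, 0 by DESeq2), beside 0.134%, and 1 entry was lower and 0 higher without overlap, beside 3% and 2.52%. In the homozygous IP against testis 12 of 54 were lower and 0 higher by edgeR, beside 11% of 444 entries, and 45 of 82 were lower and 0 higher without overlap, beside 45.7% and 0.789%. B4A sense, at 331 and 20.1 CPM in homozygous testis and 8.50 and 7.91 CPM in the IP, had a log2 fold change of -4.42 (SE 1.01, adjusted p = 0.0094), and B3 antisense, at 199 and 21.6 CPM against 8.50 and 8.55 CPM, one of -3.69. Without homozygous testis replicate 1, which was high in both, 1 of the SINE entries passed (1.85%, beside 8.11% of all entries in that fit), without replicate 2, 60 did (95.2%, beside 77.4%), and without either IP library 0 did (beside 0.427% and 0.285%). The interaction passed for 0 of 63 (1 at an unadjusted p under 0.05, 0 by DESeq2), beside 0% of 754.

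**Figure D5:**
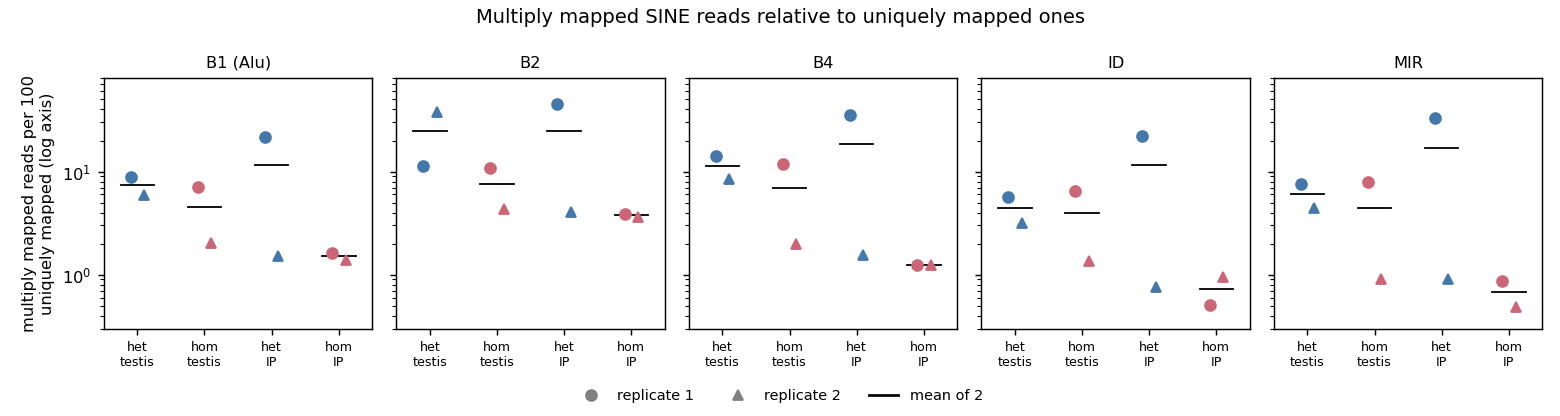
Multiply mapped reads per 100 uniquely mapped reads (vertical axis, log scale) for the 5 main SINE groups in the 4 groups of libraries; each point is 1 library and each bar the mean of 2. Replicate 1 of the heterozygous IP is above the other 3 IP libraries in each panel. All SINEs together, which are not drawn, stood at 32.4 in that library against 2.15 in replicate 2.

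Genes known to make, bind or silence SINE RNA were read between the IPs, where 16.8% of 13241 genes were higher and 14.7% lower in heterozygotes by edgeR. Of 25 genes of the RNA polymerase III machinery 0 were higher and 5 lower, among them Bdp1, a TFIIIB subunit, at 212 and 229 CPM against 345 and 401 CPM (log2 fold change -0.76), and Gtf3c5, a TFIIIC subunit, also at -0.76. Of 19 genes whose proteins bind SINE RNA 1 was higher and 6 lower. RNA of Stau1, which binds double-stranded RNA formed by SINEs in mRNA, was lower in the heterozygous IP by 1.21. Hnrnpc, which masks antisense Alu sequence in introns, was lower by 1.19, and Ssb, the La protein that binds polymerase III transcripts, by 0.98. The medians of these lists were -0.02 and -0.29, beside -0.02 over all genes. Between testes 0 of 14236 genes passed by edgeR, and in the interaction 0 of 14264 did.

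Of 24 genes of chromatin control at SINEs 3 were higher and 5 lower. Mphosph8, a HUSH subunit, stood at 317 and 389 CPM against 966 and 1267 CPM (-1.66), and Mbd2, a reader of methylated DNA, was higher by 1.31. Of 24 piRNA pathway genes 4 were higher and 0 lower, with a median of 0.04, beside 16.8% and 14.7% of all genes. Among the 4 were Gtsf1 (2.36), Piwil1 (1.09) and the targeted gene Rnf17, at 1273 and 1173 CPM against 209 and 380 CPM (2.05). All 20 markers of elongating spermatids were higher, with a median of 3.94, and Prm2, a protamine, stood at 1054 and 987 CPM against 4.06 and 6.45 CPM. Of 17 Sertoli cell markers 0 were higher and 6 lower, and of 20 round spermatid markers 10 were higher and 3 lower. The part of these cell differences in the SINE counts was not tested.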

How the data were processed

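The authors deposited whole-number counts of reads per gene and per transposon entry, the latter in separate tables for uniquely and multiply mapped reads. STAR, DESeq and build mm9 are named, per the submitters' processing notes; no version or counting rule is given in the sources used here. Testis columns repeated across tables were identical in 12 of 12 cases, and 0 columns were unmapped. Reads were scaled by genic reads times TMM factors of the gene table over all 8 libraries. Whole tables went through edgeR 4.0.16 (R 4.3.3; filterByExpr, quasi-likelihood test), each pair of groups on its own 4 libraries. The threshold was a Benjamini-Hochberg adjusted p of 0.05. DESeq2 1.42.0 was an alternative. The fits were also run on counts simulated from the same kind of model, and their recovery of known changes is not given here. Named entries are, per SINE group and strand, the one with most unique reads, and per comparison up to 5 each way with the smallest adjusted p, or 3 by unadjusted p where none passed. Other entries named to describe a group were picked after their values were seen. From each gene list, up to 3 members are named. Members and lists were chosen with earlier results of these data known. A list of 8 small RNA genes was not analysed here, as 0 were found in the table.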

Additional observations from a re-analysis of the deposited data

How the results depend on the processing

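For uniquely mapped reads, the counts of entries called between the IPs were 54 without TMM, 15 with TMM within the transposon table and 0 with all 8 libraries in the fit, and 20 to 36 when 1 library was left out. For the heterozygous IP over testis DESeq2 called 1, beside 3 of 1221, and the count again changed when 1 library was left out. For the homozygous IP over testis the counts were 2 without TMM, 6 with DESeq2, 3 with TMM within the transposon table, 0 with all 8 libraries and 0 to 46 with 1 library left out, and for the interaction 0 to 8. For multiply mapped reads, the IP comparison gave 15 with DESeq2, 12 with no filter and 0 to 64 with 1 library left out. The homozygous IP over testis gave 0 with TMM within the transposon table, 0 with all 8 libraries and 0 to 60 with 1 library left out, and the interaction 0 to 1.

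The log2 ratio of all uniquely mapped SINE reads between the IPs was 0.67 without TMM and -0.24 as a share of transposon reads, and 0.31 to 0.41 with 1 library left out. For multiply mapped reads it was 0.59 to 4.41 with 1 library left out. The heterozygous IP over testis gave -2.92 to 0.89, and the homozygous IP over testis -3.27 to -0.46, or -0.11 as a share of transposon reads. Leaving out 1 library also took the testis ratio of unique reads from -0.74 to 0.42, and the interaction from -0.38 to 0.78. With TMM within the transposon table, IP changes reversed for PB1D10 sense (-0.70) and antisense (-0.071), B3 antisense (-0.58), ID_B1 sense (-0.77), ID4 sense (-0.77), MIRb sense (-0.28) and MIR antisense (-0.064). ID4 antisense reversed to 0.14 without TMM. With 1 library left out, sign changes were met by ID_B1 sense (-0.088 to 0.11, with -0.0051 between), ID4 sense (-0.11 to 0.13), FLAM_A sense in testis (-2.98 to 0.71) and B2_Mm2 antisense in the homozygous IP over testis (-3.75 to 0.26). The cause was not tested.

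Replicate numbers are shared across groups with 2 pairs and nothing in the labels says that they pair the samples. Deviations of same-numbered samples from their group means correlated, across 13717 genes, at 0.60 in testis, 0.05 between IPs, 0.01 for the heterozygous and -0.14 for the homozygous IP over testis. With the replicate block, 1 uniquely mapped SINE entry passed in testis, B2_Mm2 antisense at -1.15 (edgeR adjusted p = 0.042), beside 3 of all 1074 entries. In the homozygous IP over testis 7 uniquely mapped SINE entries passed, beside 322 of all 1000 entries. Of its multiply mapped SINE entries 2 passed, PB1D10 antisense and MIR sense, beside 28 of all 444 entries. The crossed pairing, added after the data were seen, gave 0 and 0 there, beside 246 of 1000 and 7 of 444 entries.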
